A study of Mus musculus with 4 samples.

Results

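Immediate-early and Gadd45 genes are a set of 10 stress- and growth-responsive genes: Fos, Fosb, Jun, Junb, Egr1, Ier2, Myc, Gadd45a, Gadd45b and Gadd45g. They were matched by symbol in the authors' annotation, with 1 probe set each, and are 10 of the 29432 genes tested. The data are Affymetrix MoGene 2.0 ST arrays of whole liver from untreated C57BL/6 mice aged 8 weeks. The groups are KO, a knockout of Gdown1 (2 arrays), and FF, the control (2 arrays). In the authors' deposited table the same sides are headed Alb-cre and f/f. Cre recombinase under the albumin promoter acts in hepatocytes, so other liver cells can keep the gene. Since mice carrying Cre alone were not among the groups, effects of Cre and of the deletion cannot be told apart. In whole liver, a change in the share of a cell type and a change in RNA per cell cannot be told apart either.

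Immediate-early genes are transcribed within minutes of a stimulus such as a growth factor, stress or tissue handling, without new protein synthesis. Many carry RNA polymerase II that has started and then paused near the promoter, and Gdown1 is a protein that binds this polymerase. FOS and JUN family proteins pair as the transcription factor AP-1, EGR1 and MYC bind DNA themselves, and the small GADD45 proteins act in stress kinase signalling, cell cycle arrest and DNA repair. In liver these genes respond to partial hepatectomy, toxins and feeding. As a group of genes they are short, from 1522 bases for Ier2 to 7423 bases for Fosb, with a median of 2749.5 bases against 18326 bases for the 19170 protein-coding genes tested that have a RefSeq length.

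Values are log2 levels as the authors normalized them, and a fold change is KO minus FF on that log2 scale. The ± values are standard errors (SE) from limma, and a gene passed when its limma p, adjusted over all genes by the Benjamini-Hochberg method, was under 0.05. By this test 522 of 29432 genes passed, 1.77% of all, with 0.996% higher and 0.778% lower in KO. An unadjusted limma p under 0.05 was reached by 4998 of the 29432 genes, the share to set beside counts at that level. The KO arrays correlated with each other at r = 0.986 across probe sets and the FF arrays at 0.984, while arrays of different groups correlated at 0.972 to 0.976. The targeted gene, Polr2m, which encodes Gdown1, lay at 6.35 and 6.18 in KO and at 7.35 and 7.38 in FF, a log2 fold change of -1.10 ± 0.12 (limma adjusted p = 0.0215). As with all 522 calls, it did not pass with any single array omitted (limma adjusted p = 0.163 to 0.343 for Polr2m), nor did Polr2m with the replicate number as a block (0.104) or with all probe sets tested (0.0859). As a guide to background, 95% of 1127 olfactory receptor genes had a mean under 2.82. Precision is limited by having 2 arrays in each group.

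Gadd45b rose, Gadd45g fell, and the other 8 genes did not pass. That is 1 of 10 higher and 1 of 10 lower in KO, where 0.996% and 0.778% of all genes passed in those directions. Over the 10 genes the median log2 fold change was 0.39, against -0.02 over all genes, and it was 0.09 with KO array 1 alone and 0.71 with KO array 2 alone, each against the FF mean. Both KO arrays lay above both FF arrays for 5 members (Fos, Jun, Junb, Egr1 and Gadd45b), as they did for 21.6% of all genes. For Junb, Egr1 and Fos the lower KO value barely exceeded the higher FF value (5.106 against 5.100, 4.138 against 4.129, 3.06 against 3.02). Both KO arrays lay below both FF arrays for 2 members (Myc and Gadd45g), as for 25% of all genes.

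**Figure D1:**
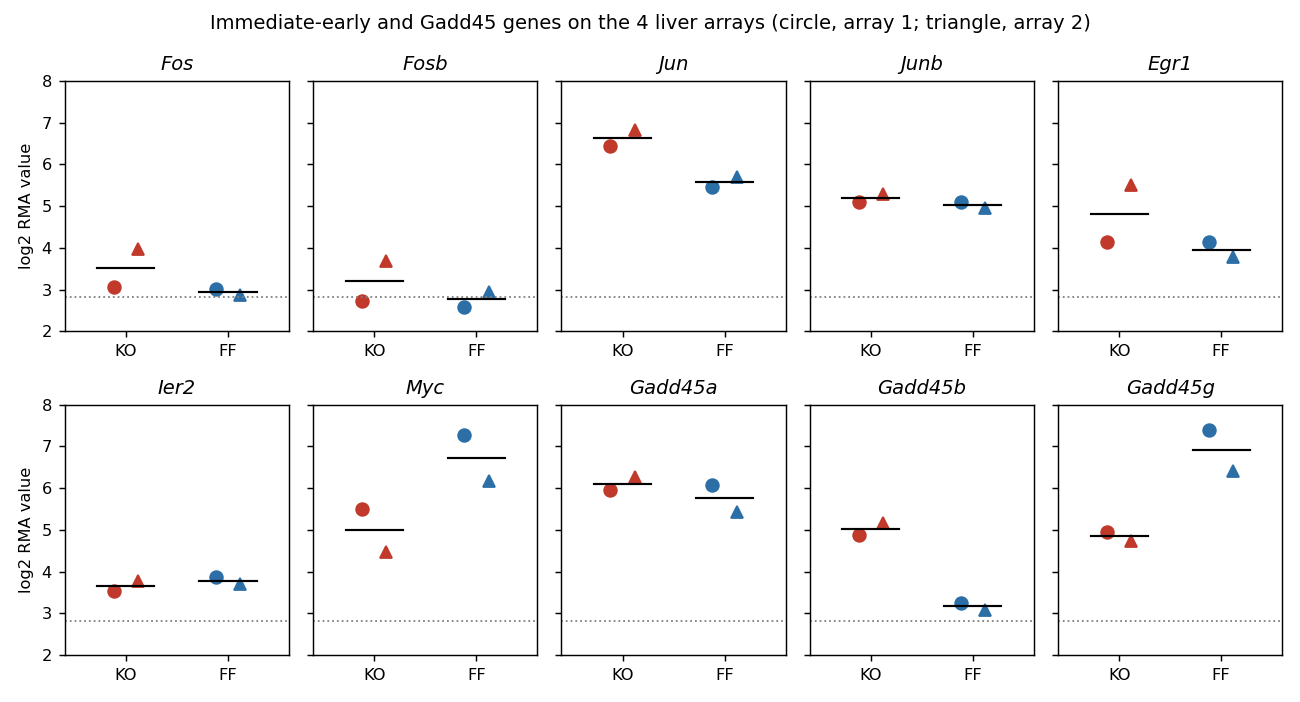
Log2 RMA value (vertical axis) of each gene on the KO arrays (red) and the FF arrays (blue); circles are array 1, triangles array 2, bars group means, and the dotted line the background guide of 2.82. Gadd45b, Gadd45g, Jun and Myc show KO and FF values apart, while Fos, Fosb and Egr1 are high on KO array 2 alone.

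The 3 Gadd45 genes differed from each other. Gadd45b, which encodes a stress-induced protein that binds the kinases MAP3K4 and MAP2K7, lay at 4.87 and 5.16 in KO livers, against 3.25 and 3.08 in FF livers. The lower KO array stood well above the higher FF array, and the FF values lay only a little above the background guide. Gadd45b rose by 1.85 ± 0.15 (SE), or 3.60-fold, with a 95% limma interval of 1.48 to 2.22 and a limma adjusted p of 0.00981. The gene lies on chromosome 10 from 80930091 to 80932204 (GRCm38.p6, the assembly of the mm10 annotation that the file header names).

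Gadd45g, a family member induced by cytokines and during liver regeneration, lay at 4.95 and 4.73 in KO livers, against 7.40 and 6.42 in FF livers. The KO arrays were 0.22 apart and the FF arrays 0.99 apart, larger gaps than those of 67.7% and 99.6% of all genes between these arrays. Gadd45g fell by 2.07 ± 0.32 (SE) on the log2 scale, so that the FF level was 4.20-fold the KO level, with a 95% limma interval of -2.85 to -1.29 and a limma adjusted p of 0.0454. It lies on chromosome 13 from 51846675 to 51848475. Both calls needed all 4 arrays. Leaving out each array in turn gave limma adjusted p-values of 0.145 to 0.302 for Gadd45b and 0.188 to 0.339 for Gadd45g, with log2 fold changes of 1.70 to 1.995 and -2.56 to -1.58. Neither passed with the replicate number as a block (limma adjusted p = 0.0862 for Gadd45b and 0.104 for Gadd45g) or with all probe sets tested (0.0628 and 0.131).

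Gadd45a, a classic target of p53 and the most studied of the family, lay at 5.94 and 6.26 in KO livers and at 6.08 and 5.43 in FF livers. The groups overlapped. Its log2 fold change of 0.35 ± 0.24 did not pass (limma adjusted p = 0.541), with an interval of -0.25 to 0.94, and it was 0.02 without FF array 2 and 0.67 without FF array 1. The gene lies on chromosome 6 from 67035096 to 67037407.

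The sequences before the starts of Gadd45b and Gadd45g are shown because these were the members that passed, in opposite directions. Each line gives the 250 bases directly before the RefSeq start (GRCm38.p6, gene strand, 5′ to 3′), with matches to the motifs named next in capitals. Gadd45b covers chr10:80929841-80930090 and Gadd45g chr13:51846425-51846674, both on the plus strand.
Gadd45b: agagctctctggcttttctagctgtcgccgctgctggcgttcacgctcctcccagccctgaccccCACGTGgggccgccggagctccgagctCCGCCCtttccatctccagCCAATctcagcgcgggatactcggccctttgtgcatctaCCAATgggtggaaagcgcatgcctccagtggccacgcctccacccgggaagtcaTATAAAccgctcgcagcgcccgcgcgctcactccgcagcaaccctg
Gadd45g: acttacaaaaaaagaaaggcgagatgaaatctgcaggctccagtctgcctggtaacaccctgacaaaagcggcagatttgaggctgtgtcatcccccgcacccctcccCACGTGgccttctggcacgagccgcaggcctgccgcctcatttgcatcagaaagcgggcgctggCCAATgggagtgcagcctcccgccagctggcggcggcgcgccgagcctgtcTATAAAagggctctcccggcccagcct

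RefSeq gave such a window for 7 of the 10 members. The motifs searched, on both strands, were the TATA box TATAAA, the CRE half-site TGACG, the full CRE TGACGTCA, which contains it, the AP-1 site TGANTCA, the GC box GGGCGG, the E-box CACGTG, the CCAAT box CCAAT, and the CArG box of serum response factor. Positions count back from the start, with -1 for the last base before it. Gadd45b held TATAAA at -46 to -41 and Gadd45g at -27 to -22. Both also held CACGTG, a sequence that MYC with MAX and several other factors can bind, at -185 to -180 in Gadd45b and at -142 to -137 in Gadd45g. TATAAA was in 3 of the 7 windows and in 12.4% of all 32851 windows in the table, and CACGTG in 2 of the 7 and in 6.02% of all. CCAAT was in 5 of the 7 and in 33.8% of all, and GGGCGG in 5 of the 7 and in 32.7% of all. TGACG was in 3 of the 7 and in 17.8% of all. TGACGTCA, TGANTCA and the CArG box had matches in 0 of the 7 windows and in 1.55%, 6.75% and 1.47% of all. These matches describe the letters alone.

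Among the AP-1 genes, Jun had the largest fold change and missed the threshold narrowly. Jun, the main DNA-binding partner in AP-1 and a gene needed for hepatocyte proliferation, lay at 6.45 and 6.83 in KO livers, against 5.46 and 5.70 in FF livers. The KO values lay above the FF values without overlap. Its log2 fold change was 1.06 ± 0.17 (SE), or 2.09-fold, with an interval of 0.63 to 1.49 and a limma adjusted p of 0.0526. With 5 other settings of the same 4 arrays (both variance trends, both scalings and the brighter 50% of genes) it passed, with limma adjusted p-values from 0.0216 to 0.0412. It did not pass with averaged probe sets (limma adjusted p = 0.0520), the replicate block (0.104) or all probe sets (0.136), nor with any array left out (0.228 to 0.396). Jun lies on chromosome 4 from 95049036 to 95052222.

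Fos, the inducible partner of Jun, lay at 3.06 and 3.98 in KO livers and at 3.02 and 2.88 in FF livers. KO array 1 sat beside the FF arrays, just above the background guide, and KO array 2 stood higher. The log2 fold change of 0.57 ± 0.29 did not pass (limma adjusted p = 0.407), and it was 0.11 without KO array 2 and 1.03 without KO array 1. Fos lies on chromosome 12 from 85473890 to 85477274.

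Fosb, a FOS relative known mostly from neurons, showed the same arrangement, with 2.74 and 3.68 in KO livers and 2.59 and 2.95 in FF livers. KO array 1 and FF array 1 lay under the background guide. Its log2 fold change of 0.44 ± 0.32 did not pass (limma adjusted p = 0.556) and was -0.03 without KO array 2 and 0.91 without KO array 1. Junb, a JUN relative with weaker transcriptional activity, lay at 5.11 and 5.30 in KO livers and at 5.10 and 4.96 in FF livers, with a log2 fold change of 0.17 ± 0.13 (limma adjusted p = 0.585). The lower KO and the higher FF value were nearly equal, and the interval of -0.15 to 0.50 does not reach a 2-fold change in either direction. Fosb lies on chromosome 7 from 19302696 to 19310118 and Junb on chromosome 8 from 84976909 to 84978748.

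The windows before Fos and Jun are shown for the AP-1 pair, in the same form as those of the Gadd45 genes. Fos covers chr12:85473640-85473889 on the plus strand and Jun chr4:95052223-95052472 on the minus strand. Fos held TATAAA at -33 to -28, TGACG at -129 to -125 and at -66 to -62, and the GC box on the reverse strand. In Jun the matches were CCAAT and a GC box on the reverse strand.
Fos: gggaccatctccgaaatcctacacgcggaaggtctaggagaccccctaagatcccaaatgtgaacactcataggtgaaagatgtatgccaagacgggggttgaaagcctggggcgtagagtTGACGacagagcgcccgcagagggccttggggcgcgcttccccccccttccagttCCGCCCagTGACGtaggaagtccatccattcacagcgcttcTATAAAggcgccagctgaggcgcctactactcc
Jun: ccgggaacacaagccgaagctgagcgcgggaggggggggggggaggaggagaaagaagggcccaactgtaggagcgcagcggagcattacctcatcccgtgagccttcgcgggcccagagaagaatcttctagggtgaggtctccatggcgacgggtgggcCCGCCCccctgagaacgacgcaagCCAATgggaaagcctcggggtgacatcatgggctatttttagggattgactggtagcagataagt

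Egr1 and Ier2, a zinc finger factor and a small nuclear protein that both follow serum response factor, did not pass. Egr1 lay at 4.14 and 5.50 in KO livers and at 4.13 and 3.77 in FF livers. KO array 1 and FF array 1 were nearly equal and KO array 2 stood apart from the other 3. The log2 fold change of Egr1 was 0.87 ± 0.43 (SE; limma adjusted p = 0.384), and it was 0.19 without KO array 2 and 1.55 without KO array 1.

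Ier2 lay at 3.54 and 3.78 in KO livers and at 3.86 and 3.71 in FF livers. The groups overlapped, and KO array 2 did not stand apart as it did for Egr1. The log2 fold change was -0.12 ± 0.14, with an interval of -0.47 to 0.22 and a limma adjusted p of 0.740. Egr1 lies on chromosome 18 from 34861207 to 34864956 and Ier2 on chromosome 8 from 84661331 to 84662852.

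Myc, which encodes a transcription factor of growth and ribosome synthesis, was the one immediate-early member with both KO arrays below both FF arrays. It lay at 5.51 and 4.47 in KO livers, against 7.28 and 6.16 in FF livers. The arrays were 1.03 apart in KO and 1.12 apart in FF, among the widest gaps of all genes (99.5th and 99.8th percentile). The log2 fold change of -1.73 ± 0.46, with an interval of -2.87 to -0.59, did not pass (limma adjusted p = 0.143), and it lay between -2.29 and -1.17 when each array was left out in turn. Myc lies on chromosome 15 from 61985341 to 61990361. Of 14 measured genes that MYC is known to activate, 0 passed limma. An unadjusted limma p under 0.05 held for 3 of them, against 4998 of all 29432 genes. The median log2 fold change of the 14 was 0.16. The largest differences there were in Cdk4, a cell cycle kinase, at 0.60 ± 0.16, and Nme1, a nucleotide kinase, at 0.45 ± 0.12. Of 13 partners and antagonists of MYC 0 passed and 0 had an unadjusted p under 0.05 (limma), with a median of -0.02. Mxd4, a MAX partner that opposes MYC, had the largest value at 0.37 ± 0.18, and Trrap, a cofactor, followed at -0.29 ± 0.13.

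Among the members, the KO arrays differed most from each other for Egr1, Myc, Fosb and Fos. KO array 2 was the highest of the 4 arrays for 7 of the 10 members, 70.0%, against 21.3% of all genes. This share also depends on KO against FF: 7 of the 10 members had a higher mean in KO, against 13527 of all 29432 genes. It exceeded KO array 1 by 1.36 for Egr1, 0.94 for Fosb and 0.92 for Fos on the log2 scale, where 95% of all genes differed by less than 0.54 between these arrays. For Jun, Gadd45a, Gadd45b, Ier2 and Junb the excess was 0.37, 0.32, 0.29, 0.24 and 0.19. Myc and Gadd45g went the other way, lower on KO array 2 by 1.03 and 0.22. A wide gap between the KO arrays raises the SE in limma and so makes passing less likely.

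Other immediate-early genes were mixed in this respect. Of 51 others 34 had a higher mean in KO, and KO array 2 was the highest for 23, 45.1%, against 21.3% of all genes. The share was 44.4% of 18 pausing factors, 42.9% of 14 MYC targets and 36.0% of 25 upstream kinases and factors. It was 23.1% of 13 MYC partners and antagonists and 12.5% of 8 GADD45 partners. KO array 2 was above KO array 1 for 33 of the 51, for 8 of the 10 members and for 14374 of all 29432 genes. The median difference was 0.08 over the 51, 0.30 over the 10 members and -0.0016 over all genes. The widest excess over KO array 1, picked after the values were seen, was in Egr2, an EGR1 relative, with 3.24 and 5.24 in KO livers and 3.26 and 2.97 in FF livers. Nr4a1, an orphan nuclear receptor gene, had 3.69 and 5.50 in KO livers and 4.60 and 4.07 in FF livers, and Cyr61, a matricellular protein gene, had 5.91 and 7.09 in KO livers and 5.50 and 4.92 in FF livers. The widest difference the other way was in Sik1, a kinase gene, with 6.11 and 5.26 in KO livers and 5.68 and 6.45 in FF livers. All 5 measured heat shock genes were also highest on KO array 2, with summed linear signals of 258 and 426 in KO and of 217 and 215 in FF. Being highest there also depends on KO against FF: all 5 had a higher mean in KO, against 13527 of all 29432 genes. Of the 5 genes 0 passed limma, against 1.77% of all genes. An unadjusted limma p under 0.05 held for 3 of the 5, against 4998 of all 29432 genes. Hspa1a, an inducible chaperone gene, had 4.18 and 6.54 in KO livers and 4.43 and 4.02 in FF livers. Hspb1, a small chaperone gene, had 3.98 and 4.66 in KO livers and 3.51 and 3.06 in FF livers. What part the animal, its handling or the array had in this was not tested, and with 1 array on each side the difference between the KO arrays has no test.

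**Figure D2:**
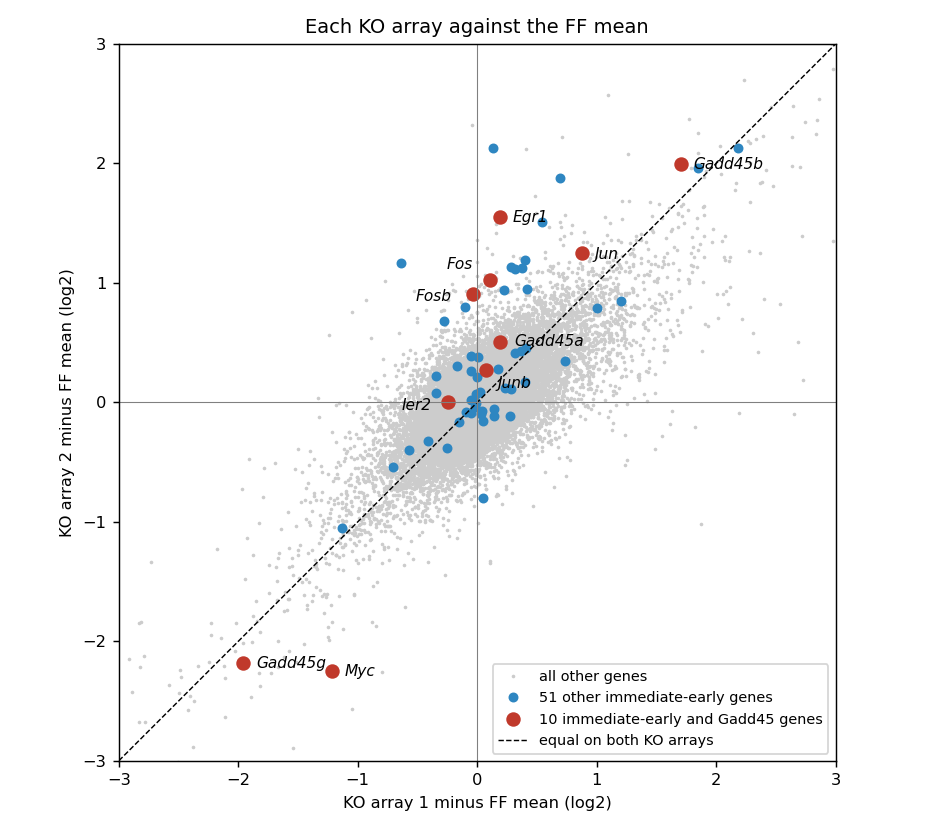
Log2 level on KO array 1 (horizontal) and KO array 2 (vertical), each minus the FF mean; grey dots are all other genes, blue the 51 other immediate-early genes and red the 10 members, and 32 genes beyond 3 are not drawn. Gadd45b, Gadd45g and Jun lie near the dashed line of equal values, while Egr1, Fos and Fosb lie far above it, near 0 on KO array 1.

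The second deposited table gave other directions for several members. In the authors' deposited table the Alb-cre and f/f averages of Egr1 were 4.81 and 6.54, a signed fold change of -3.33. In the same table, Fos had averages of 4.67 in Alb-cre and 5.41 in f/f (-1.67-fold), and Ier2 had 3.77 and 5.01 (-2.36-fold). Egr1, Fos, Jun and Junb were therefore lower in Alb-cre in the authors' deposited table, where the mean of the 4 arrays was higher in KO. Jun, which nearly passed on the arrays, had averages of 6.68 in Alb-cre and 6.96 in f/f there.

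The Gadd45 genes, Myc, Ier2 and Fosb kept their directions. Fosb had averages of 3.98 in Alb-cre and 3.79 in f/f (1.14-fold) in the authors' deposited table. In the authors' deposited table Gadd45b had averages of 5.24 in Alb-cre and 4.03 in f/f (2.32-fold), and Gadd45g had 5.05 and 7.46 (-5.29-fold). Gadd45a had 6.63 and 5.72 (1.89-fold) and Myc 6.27 and 7.33 (-2.09-fold) in the authors' deposited table. At least 2-fold higher there was 1 of the 10 members, against 1.38% of all genes, and at least 2-fold lower were 4 (Gadd45g, Egr1, Ier2 and Myc), against 1.28% of all genes.

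**Figure D3:**
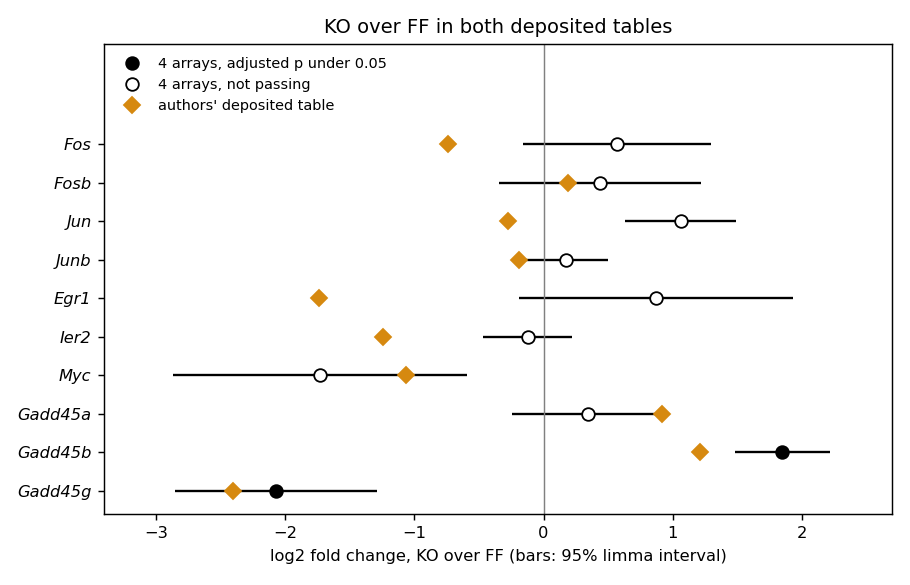
Log2 fold change of KO over FF (horizontal axis) for the 10 genes; circles are the 4 arrays with 95% limma intervals, filled where the adjusted p was under 0.05, and diamonds the authors' deposited table. The diamonds of Fos, Jun, Junb and Egr1 lie left of 0 and their circles right of it, while both marks of Gadd45b, Gadd45g and Myc lie on the same side.

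The tables also differed in level, and for Fos and Egr1 chiefly on the control side. The f/f averages of the authors' deposited table exceeded the FF means of the array values by a median of 0.67 over all genes, with 90% of genes between 0.03 and 1.43. For Egr1 this excess was 2.59 and for Fos 2.46, the 13th and 19th largest of the 29432 genes. On the KO side the excess was -0.01 for Egr1 and 1.15 for Fos. The median there was 0.68, with 90% of genes between 0.015 and 1.48. The f/f average of Egr1 in the authors' deposited table, 6.54, was thus above both FF arrays, at 4.13 and 3.77, by more than the offset of nearly all genes. Which arrays or settings lie behind the authors' averages is not stated in the labels or file headers, and what the difference comes from was not tested.

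**Figure D4:**
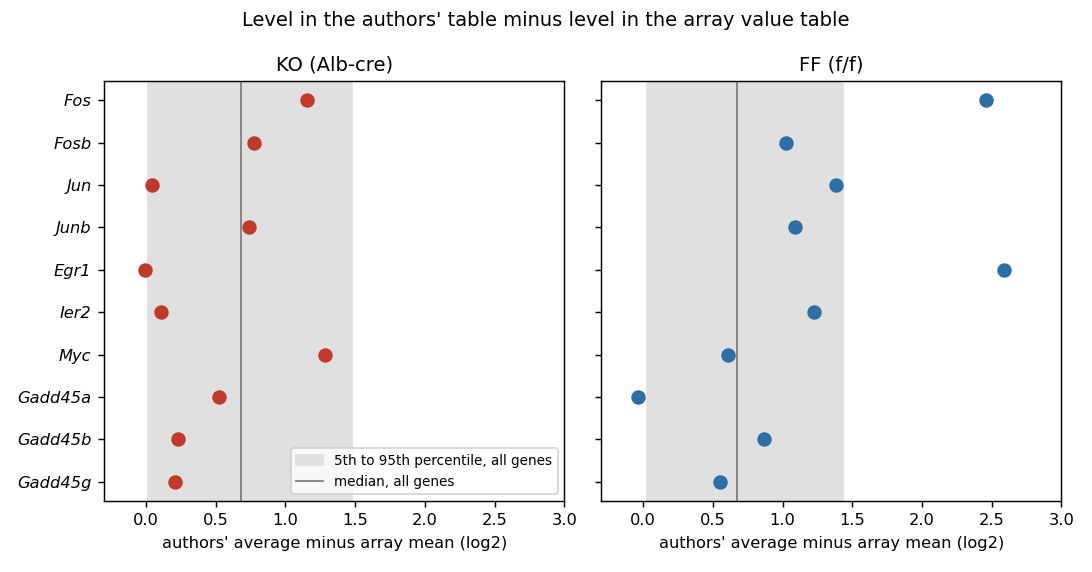
Authors' log2 average minus the mean of the array values (horizontal axis) for the 10 genes in KO (left, red) and FF (right, blue); the band spans the 5th to 95th percentile and the line the median of all genes. Egr1 and Fos lie at 2.59 and 2.46 in FF, right of the band. In KO Egr1, at -0.01, lies just left of the band and Fos, at 1.15, inside it.

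Among the 51 other immediate-early genes measured, 2 rose and 1 fell, where 0.996% and 0.778% of all genes passed in those directions. Plk2, a kinase gene that is also a p53 target, lay at 7.38 and 7.32 in KO livers, against 5.28 and 5.11 in FF livers, and rose by 2.15 ± 0.12 (limma adjusted p = 0.00498). Btg2, an antiproliferative gene and p53 target, lay at 6.01 and 6.13 in KO livers, against 3.76 and 4.58 in FF livers, and rose by 1.90 ± 0.27 (limma adjusted p = 0.0362). Errfi1, which encodes an inhibitor of the EGF receptor, lay at 9.55 and 9.62 in KO livers, against 10.61 and 10.74 in FF livers, and fell by 1.09 ± 0.12 on the log2 scale (limma adjusted p = 0.0211). In each of the 3 the KO arrays were close to each other. Plk2 passed with the replicate block and with all probe sets (limma adjusted p = 0.0485 and 0.0419), and Btg2 (0.104 and 0.116) and Errfi1 (0.104 and 0.0829) did not. The median log2 fold change of the 51 genes was 0.17, or 0.04 with KO array 1 alone and 0.22 with KO array 2 alone, against -0.02 over all genes.

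The kinases and factors that act upstream of these genes showed 0 passing genes of 25 by limma. An unadjusted limma p under 0.05 held for 6 of them, against 4998 of all 29432 genes. The median of the 25 was 0.10. The largest differences were in the receptor genes Met, at -0.68 ± 0.14, and Egfr, at -0.60 ± 0.28. Of 8 genes whose products bind or act with GADD45 proteins, 2 rose and 0 fell, where 0.996% of all genes rose and 0.778% fell by the same test. Cdkn1a, a cell cycle inhibitor induced by p53, rose by 5.30 ± 0.19 (limma adjusted p = 0.00135) and Trp53, the gene of p53 itself, by 0.85 ± 0.12 (limma adjusted p = 0.0362). Gadd45a, another p53 target, thus had 0.35 beside 5.30 for Cdkn1a. Of 18 genes of pausing and its release, Polr2m included, 2 rose and 1 fell, with a median of 0.09. The 1 that fell was Polr2m, the targeted gene. Polr2a, the largest subunit of RNA polymerase II, rose by 1.45 ± 0.13 and Supt5, a pausing and elongation factor, by 0.85 ± 0.12 (limma adjusted p = 0.0120 and 0.0408).

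Over the 4 arrays, the genes with values most like those of Gadd45b were Capn6, Col1a1 and Robo1, at Euclidean distances of 0.10, 0.39 and 0.39 between mean-centred log2 values. Near Gadd45g by the same measure were Obp2a and Inmt, at 0.16 and 0.45. Capn6 had log2 values of 4.78 and 4.96 in KO livers and 3.04 and 2.95 in FF livers. Obp2a had 2.09 and 2.004 in KO livers and 4.76 and 3.66 in FF livers.

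Among the cell type marker lists, only 2 genes passed, both of stellate cells. Over all genes 0.996% passed higher and 0.778% lower in KO, and 4998 of 29432 had an unadjusted limma p under 0.05. Hepatocyte markers had 0 of 7 genes passing limma (2 at an unadjusted p under 0.05) and summed linear signals of 22039 and 22605 in KO and of 24194 and 23804 in FF, with Asgr1 at -0.61 ± 0.15 and Apoa1 at -0.33 ± 0.11. Of 6 stellate cell markers 2 rose, Rgs5 by 0.96 ± 0.13 and Reln by 0.91 ± 0.12 (limma adjusted p = 0.0319 and 0.0307), and the list summed to 1025 and 817 in KO and to 482 and 469 in FF. Of 8 Kupffer cell and macrophage markers 0 passed limma (5 at an unadjusted p under 0.05), with Marco at 1.38 ± 0.58 and Adgre1 at 1.28 ± 0.40, and sums of 1570 and 1017 in KO and of 713 and 762 in FF. All 8 Kupffer cell and macrophage markers and all 6 stellate cell markers were higher on KO array 1 than on KO array 2. Myc and Gadd45g were also higher on KO array 1, and the other 8 members were higher on KO array 2. Over all genes 14374 of 29432 were higher on KO array 2.

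Of 5 bile duct markers 0 passed limma (4 at an unadjusted p under 0.05), with Epcam at 1.65 ± 0.30 and Spp1 at 1.48 ± 0.36, and sums of 534 and 393 in KO and of 138 and 224 in FF. All 5 were likewise higher on KO array 1 than on KO array 2. Of 5 sinusoidal endothelial markers 0 passed (2 at an unadjusted p under 0.05), with Lyve1 at 0.66 ± 0.17 and Pecam1 at 0.32 ± 0.13, and sums of 821 and 863 in KO and of 731 and 675 in FF. Of 10 lymphocyte and neutrophil markers 0 passed (1 at an unadjusted p under 0.05), 6 had a mean under the background guide, and the sums were 126 and 86.9 in KO and 84.2 and 87.4 in FF. In this list 1 of the 10 was higher on KO array 2 than on KO array 1. Ptprc, the leukocyte common antigen gene, had 0.89 ± 0.24 and Elane, of neutrophil granules, 0.26 ± 0.12. These were the 2 largest changes, while 7 of the 10 had a lower mean in KO and the list's median log2 fold change was -0.06. The part of these cell types in the values of Gadd45b, Gadd45g and Jun was not tested.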

How the data were processed

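Liver RNA of 2 KO and 2 FF mice, the groups given by the sample titles, was labelled in a whole-transcript protocol, per the labels' protocols. Per the submitters' processing notes, which name RMA and Affymetrix Expression Console, the deposited value table holds log2 expression values, here of 41345 probe sets. RMA equalises the distributions of the arrays, so a change in total RNA cannot be seen. In the other table the authors deposited log2 averages for Alb-cre and f/f with a signed linear fold change, negative where Alb-cre was lower. Its symbols named the probe sets: 29945 had 1 symbol, which gave 29432 genes, using the probe set with the highest mean over the 4 arrays. All 10 genes of the report had 1 probe set.

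KO was compared with FF by lmFit and eBayes of limma (version 3.58.1, run in R version 4.3.3) without a block, with Benjamini-Hochberg adjustment over all genes and 5.79 degrees of freedom in total, of which 3.79 came from the prior. The labels call the samples biological replicates. On simulated data for this comparison (29432 genes, 10 sets) the fit found 28.8% of 2-fold and 94.3% of 4-fold changes, and 4.57% of its calls were false. The simulated spreads came from the fit's own prior, with independent noise and no effect shared within an animal or array. These shares hold for such data only and are not the error rate of the calls on the real arrays. Same-numbered arrays did not deviate together (correlation -0.0064 across genes), so the block was an alternative. No scan date or batch was given in the labels.

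The members, lists and tests were chosen with earlier results of these data known. Named genes are the members, Polr2m, up to 3 passing genes per direction of each list (or its 2 largest changes where none passed), and the 3 genes nearest to each passing member, of which 1 is not reported here; Egr2, Nr4a1 and Cyr61 were added after their values were seen. Positions and sequences are from RefSeq, GRCm38.p6. Alternatives were the block, 2 variance trends, median centring, cyclic loess, the brighter 50% of genes, averaged probe sets, all probe sets, each array left out, and the authors' table.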

Additional observations from a re-analysis of the deposited data

How the results depend on the processing

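Each alternative kept the direction of the 10 genes except for those named here. In the authors' deposited table Fos, Jun, Junb and Egr1 had log2 fold changes of -0.74, -0.28, -0.19 and -1.74. With single arrays left out Fosb ran from -0.031 to 0.91 and Ier2 from -0.24 to 0.00043. The 522 passing genes became 30 with the replicate block, 975 with a robust variance trend, 850 without the dimmer 50% of genes, 42 with all probe sets tested, and 0 with any array left out (3364 to 3958 at an unadjusted p under 0.05, limma). Of the 10 genes 2 passed, against 0 with the replicate block, 0 with all probe sets and 0 with any array left out. Of the 51 other immediate-early genes 3 passed, against 1 with the replicate block, 5 with a robust trend, 5 with median centring, 5 without the dimmer genes, 1 with all probe sets and 0 with any array left out. With 1 array left out, the lone array of its group is assumed to vary like the other group. Of the other genes called by name from the lists, Cdkn1a passed with the replicate block and with all probe sets (limma adjusted p = 0.0390 and 0.0266), and Trp53, Polr2a, Supt5, Rgs5 and Reln passed with neither (0.0673 to 0.129). With 2 arrays in each group, log2 fold changes as large as -1.73 (Myc) and 1.06 (Jun) did not pass. The causes of these differences were not tested.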
